A study of Mus musculus with 12 samples.

Results

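A set of 10 genes that make and desaturate fatty acids in the liver was followed: Acly, Acaca, Acacb, Fasn, Thrsp, Elovl6, Scd1, Fads1, Fads2 and Srebf1. They were chosen by name, and every probe set annotated to 1 of these symbols alone was taken. That gave 18 probe sets on the 430A array, of 22626 that are no controls, and 25 on the 430 2.0 array, of 45037. All 10 genes were present on both arrays, among 12393 named genes on 430A and 18193 on 430 2.0. On 430A 16 of the 18 probe sets passed the filter on dim signal and on 430 2.0 19 of the 25, with at least 1 probe set for each of the 10 genes.

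Liver RNA of mice aged 10 weeks was hybridised to 12 Affymetrix arrays. On 430A, Fah off stands for 3 livers of Fah knockout mice taken off NTBC for 14 days, and Fah p21 off for 2 livers of Fah,p21 double knockout mice taken off it for as long. The normal group pooled 4 livers that differ among themselves: normal 1 was wildtype on water, normal 2 wildtype on NTBC, normal 3 a Fah knockout on NTBC and normal 4 a Fah,p21 double knockout on NTBC. A second array design, 430 2.0, carried livers 3 and 4 of the Fah p21 off group and 1 normal liver, normal 4, which was taken to be the mouse of that number on 430A. Fah encodes fumarylacetoacetate hydrolase, which carries out the final step of tyrosine catabolism. NTBC stops the pathway further up and so keeps toxic intermediates from forming in mice that lack Fah. The p21 protein, encoded by Cdkn1a, restrains the cell cycle. Titles count the arrays of a group as biological replicates. The sources used here do not state strain, sex or feeding state, and p-values measure the spread among these arrays only. In bulk liver fewer cells of a type and less RNA per cell cannot be told apart.

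De novo lipogenesis turns surplus carbohydrate into fat and in mammals is strongest in liver and adipose tissue. Citrate leaves the mitochondrion and is cleaved to acetyl-CoA, which a carboxylase turns into malonyl-CoA, and fatty acid synthase joins these units into palmitate. Elongases lengthen palmitate, and desaturases put double bonds into it or into dietary polyunsaturated precursors. In liver the programme is switched on after feeding by insulin through SREBP-1c, by glucose through ChREBP and by the liver X receptor (LXR).

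After NTBC withdrawal 7 of the 10 genes fell in both genotypes on 430A, and none rose, against the 4 pooled normal livers: Acly, Fasn, Thrsp, Scd1, Fads1, Fads2 and Srebf1. The falls in Fah off livers ranged from 2.28-fold for Acly to 17.3-fold for Thrsp, and those in Fah p21 off livers from 1.75-fold for Acly to 9.80-fold for Thrsp. Without Fah p21 off liver 1, so with 1 liver in that group, 2 of the 10 passed there, Fads1 and Fads2. Against normal 4 alone, the control of the same genotype, 2 of the 10 passed in Fah p21 off livers, Fads1 lower and Acacb higher. The Acacb signal of normal 4, 25.6, was dim, at percentile 18.2 of its array. Both acetyl-CoA carboxylases, Acaca and Acacb, and the elongase Elovl6 did not pass in either genotype against the pooled normal livers. Between Fah p21 off and Fah off livers 0 of the 10 genes passed. A gene passed at a limma adjusted p under 0.05, with Benjamini-Hochberg adjustment over all 15307 probe sets tested.

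The background of change was broad, and the counts are to be read against it. Of all probe sets tested, 35.5% passed in Fah off against normal livers, 15.4% lower and 20.1% higher. In Fah p21 off against normal livers 28.4% passed, 10.7% lower and 17.7% higher. Counted by gene, each on its probe set of highest mean, 16.5% were lower and 19.7% higher in Fah off against normal livers. In Fah p21 off livers 11.5% of genes were lower and 17.8% higher. The counts of gene lists and markers on 430A given below stand beside these shares. Scaling to a common median turned the split in that comparison to 1651 probe sets higher and 2514 lower, against 2716 and 1637, and left the count of the 10 genes at 7. In Fah p21 off against Fah off livers 0.0392% passed, or 6 probe sets, 0.0131% lower and 0.0261% higher, while 1234 probe sets had an unadjusted p under 0.05. On 430 2.0, in Fah p21 off against normal, 11.5% passed, 3.8% lower and 7.71% higher. The median log2 difference of the 10 genes was -1.37 in Fah off and -1.03 in Fah p21 off livers against normal, beside 0.02 and 0.11 over all probe sets tested. All livers off NTBC lay below all 4 normal livers for 7 of the 10 genes in each genotype, beside 19% of all probe sets in each. Both comparisons with normal on 430A share the 4 normal livers.

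Sequence upstream is shown for 5 of the 7 genes that fell and for Elovl6, which did not pass. Windows of 250 bases before the annotated start were taken from RefSeq (GRCm38.p6) and were held for 8 of the 10 genes, with 3 starts for Srebf1, while Scd1 and Fads1 had none in the table. The windows of Acaca and Acacb were searched and are not printed, and whether the annotated starts are those used in liver was not tested. Both strands were searched for the CCAAT box, which NF-Y binds and whose letters are its name, and for the GC box of Sp1, written GGGCGG. A sterol response element of SREBP was searched as TCACNCCAC. The E-box that USF and, as a pair, ChREBP can bind was searched as CACGTG, and the TATA box as TATAAA. The DR4 element of LXR was added by a pattern set after the windows had been read. Capitals mark the CCAAT boxes, GC boxes and DR4 elements found, and each sequence runs 5′ to 3′ towards the start of the gene:

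Acly (chr11:100528001-100528250, minus strand): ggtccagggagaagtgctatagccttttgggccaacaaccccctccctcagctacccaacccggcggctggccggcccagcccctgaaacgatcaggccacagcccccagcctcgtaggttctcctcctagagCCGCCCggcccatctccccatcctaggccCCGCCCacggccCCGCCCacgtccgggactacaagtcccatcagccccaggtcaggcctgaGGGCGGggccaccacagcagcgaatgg
Fasn (chr11:120824548-120824797, minus strand): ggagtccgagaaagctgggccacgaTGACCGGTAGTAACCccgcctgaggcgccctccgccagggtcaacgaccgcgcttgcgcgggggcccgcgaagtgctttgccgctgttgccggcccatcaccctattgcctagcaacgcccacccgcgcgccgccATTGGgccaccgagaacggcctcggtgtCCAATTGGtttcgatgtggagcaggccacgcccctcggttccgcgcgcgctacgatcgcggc
Thrsp (chr7:97417551-97417800, minus strand): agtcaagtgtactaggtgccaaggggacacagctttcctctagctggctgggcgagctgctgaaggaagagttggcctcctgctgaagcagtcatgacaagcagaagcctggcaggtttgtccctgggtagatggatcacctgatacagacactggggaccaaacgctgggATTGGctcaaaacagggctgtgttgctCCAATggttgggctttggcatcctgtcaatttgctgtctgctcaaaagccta
Fads2 (chr19:10101504-10101753, minus strand): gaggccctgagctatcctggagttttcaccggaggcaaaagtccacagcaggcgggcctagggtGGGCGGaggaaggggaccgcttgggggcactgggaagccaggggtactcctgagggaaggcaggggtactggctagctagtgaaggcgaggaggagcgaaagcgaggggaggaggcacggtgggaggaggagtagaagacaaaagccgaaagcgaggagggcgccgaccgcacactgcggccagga
Srebf1 start 3 (chr11:60210472-60210721, minus strand): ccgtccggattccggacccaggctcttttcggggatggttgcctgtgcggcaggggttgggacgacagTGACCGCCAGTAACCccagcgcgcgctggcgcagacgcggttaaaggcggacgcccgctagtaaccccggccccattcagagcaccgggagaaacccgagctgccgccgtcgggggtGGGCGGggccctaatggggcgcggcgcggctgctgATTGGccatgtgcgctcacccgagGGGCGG
Elovl6 (chr3:129532136-129532385, plus strand): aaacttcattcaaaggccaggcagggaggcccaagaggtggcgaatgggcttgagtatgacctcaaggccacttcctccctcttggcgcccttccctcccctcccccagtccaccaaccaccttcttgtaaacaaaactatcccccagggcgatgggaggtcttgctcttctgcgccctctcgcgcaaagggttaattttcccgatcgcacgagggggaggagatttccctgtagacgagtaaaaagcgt

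The windows differed in which elements they held. Fasn held 3 CCAAT boxes, 2 of which overlap on opposite strands, Thrsp held 2, and the window of Srebf1 start 3 held 1. GC boxes numbered 4 in Acly, 1 in Fads2 and 2 at Srebf1 start 3, and the Elovl6 window held none of the motifs searched. Of the Srebf1 windows that are not printed, start 1 held 1 CCAAT box and start 2 held 2 GC boxes. Neither of these held a DR4 element. The window of Acacb held 1 CCAAT box and 1 TATA box, and that of Acaca none of the motifs. The DR4 element lay between 225 and 211 bases before the start of Fasn and between 182 and 168 bases before Srebf1 start 3. Over all 32851 mouse windows of this length 33.8% held a CCAAT box, 32.7% a GC box and 12.4% a TATA box. Shares were 6.02% for the E-box, 1.05% for the SRE-like element and 0.192% for the DR4 element. Because the DR4 pattern was set after these genes' windows had been read, its share is no background for the matches in them. The E-box and the SRE-like element were in 0 of the 8 genes' windows, which says only that these letters are not within them. A match is a description of the sequence.

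Acly, which cleaves citrate to supply cytosolic acetyl-CoA, fell in both genotypes. On probe set 1451666_at it read 1059.4, 1179.5 and 830.2 in Fah off livers 1 to 3, 1501.4 and 1163.6 in Fah p21 off livers 1 and 2, and 3207.9, 2320, 2279.5 and 1699.9 in normal livers 1 to 4. Every liver off NTBC lay below all 4 normal livers, and normal 4 was the lowest of those. This was a log2 difference of -1.19 ± 0.21 (SE) in Fah off livers (limma adjusted p = 0.00107) and -0.81 ± 0.23 in Fah p21 off livers (limma adjusted p = 0.0246). Of the other Acly probe sets, 1439459_x_at also passed in both comparisons. Probe set 1425326_at passed in Fah off livers but had a limma adjusted p of 0.0739 in Fah p21 off livers, and the other two were too dim to test.

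The carboxylases, which make malonyl-CoA, did not pass in either direction. Acaca, the cytosolic form that feeds synthesis, read 161.7, 161.1 and 93.3 in Fah off livers, 140 and 203.6 in Fah p21 off livers, and 68.6, 74.2, 197.7 and 148.8 in normal livers 1 to 4. The normal livers divided by genotype: both knockouts on NTBC lay above both wildtype livers, at 277% of the wildtype mean in normal 3 and 208% in normal 4. Both wildtype values were dim, at percentiles 38.4 and 39.2, under the 40th percentiles of 73.8 and 77 of their arrays. Changes of Acaca against wildtype livers therefore rest on 2 dim values. The log2 difference was 0.25 ± 0.35 in Fah off livers, with a 95% interval from -0.52 to 1.02 and a limma adjusted p of 0.613. Set against the wildtype livers alone it was 0.83 in Fah off livers (limma adjusted p = 0.0427) and 1.14 in Fah p21 off livers (limma adjusted p = 0.0193), and against the Fah knockout on NTBC the Fah off value was -0.52.

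Acacb, the mitochondrial form whose malonyl-CoA restrains fatty acid oxidation, read 314.8, 231.7 and 100 in Fah off livers, 189.9 and 260.3 in Fah p21 off livers, and 232.6, 147.8, 125 and 25.6 in normal livers. Normal 4 lay far below the other normal livers, at 13.5% of the wildtype mean, and the groups overlapped. Its 25.6 was a dim value, at percentile 18.2 of its array and under the 40th percentile of 96.3. On 430 2.0 normal 4 read 139.8 on the same probe set, at percentile 65.7. Changes of Acacb against normal 4 on 430A therefore rest on 1 dim value. The log2 differences were 0.82 ± 0.57 in Fah off livers (limma adjusted p = 0.289) and 1.00 ± 0.64 in Fah p21 off livers (limma adjusted p = 0.282). Against normal 4 alone, the liver of the same genotype, the Fah p21 off difference was 2.71 (limma adjusted p = 0.0138).

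Fasn, the synthase that builds palmitate, fell 3.41-fold in Fah off livers and 2.20-fold in Fah p21 off livers. Its signal was 337.5, 305.6 and 157.7 in Fah off livers, 368.9 and 429.8 in Fah p21 off livers, and 1211.4, 858.3, 880.6 and 680.8 in normal livers. All 5 livers off NTBC lay below all 4 normal livers, and both Fah p21 off livers lay above all 3 Fah off livers. On the log2 scale this was -1.77 ± 0.26 in Fah off (limma adjusted p = 0.000338) and -1.14 ± 0.29 in Fah p21 off livers (limma adjusted p = 0.0138).

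Thrsp, also called Spot 14, a small protein induced by thyroid hormone, carbohydrate and SREBP-1c that promotes lipogenesis, had the largest fall of the 10 genes in both comparisons. Probe set 1424737_at read 386.1, 589.7 and 102.3 in Fah off livers, 235.3 and 1129.2 in Fah p21 off livers, and 7379.8, 4224.7, 5469.5 and 4183 in normal livers. The groups off NTBC and the normal livers were far apart, yet the livers off NTBC also differed among themselves, 5.76-fold within Fah off and 4.80-fold within Fah p21 off. Its log2 difference was -4.12 ± 0.58 in Fah off (limma adjusted p = 0.000257) and -3.29 ± 0.65 in Fah p21 off livers (limma adjusted p = 0.0034). A second probe set, 1422973_a_at, gave -3.78 ± 0.37 and -3.30 ± 0.42 in the same order.

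Elovl6, which lengthens palmitate to stearate, did not pass in either genotype. On probe set 1417404_at it read 538.9, 591.5 and 583.9 in Fah off livers, 759.2 and 586.5 in Fah p21 off livers, and 753.5, 552.5, 550.1 and 429.7 in normal livers. The 3 Fah off livers lay within the range of the normal livers. The log2 difference in Fah off livers was 0.03 ± 0.18 (limma adjusted p = 0.926), with a 95% interval from -0.38 to 0.43, so that a fall as large as that of Fasn lay outside it. It was 0.25 ± 0.21 in Fah p21 off livers (limma adjusted p = 0.415). The sign in Fah off livers turned under quantile normalization, to -0.05, and under a common median, to -0.04.

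**Figure D1:**
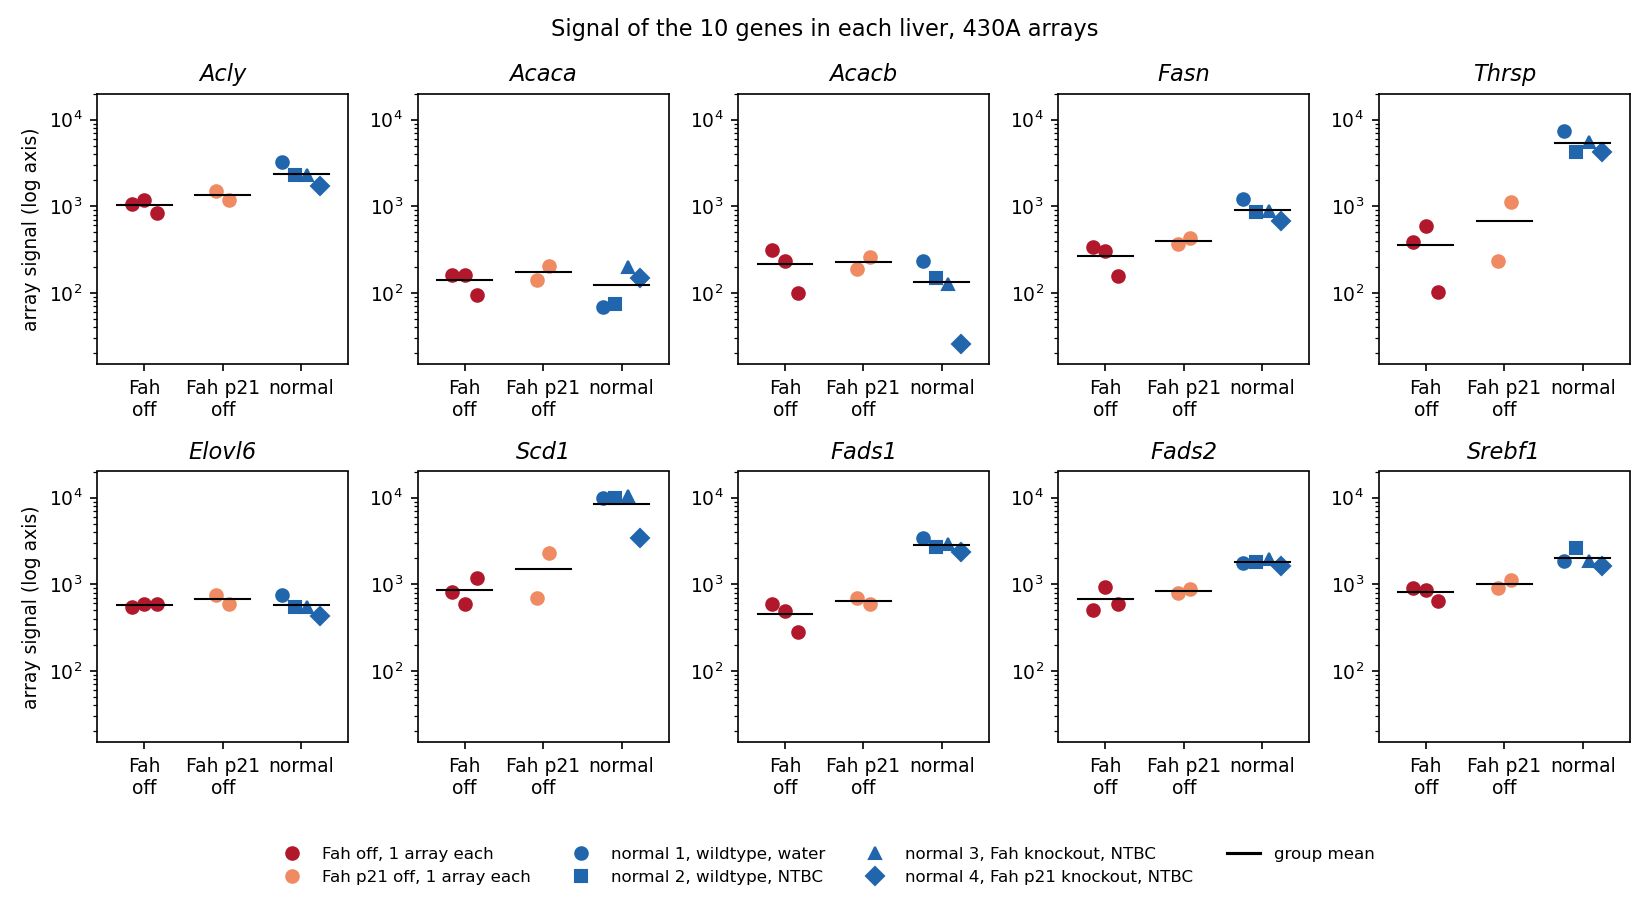
Array signal (log axis) of the probe set with the highest mean of each gene in every 430A liver, with Fah off and Fah p21 off livers left of the normal livers, 1 point for each array and a line at the group mean. In Acly, Fasn, Thrsp, Scd1, Fads1, Fads2 and Srebf1 all 5 livers off NTBC lie below all 4 normal livers, and in Acaca, Acacb and Elovl6 the groups overlap.

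Scd1, the main liver desaturase that makes oleate and palmitoleate, fell 9.16-fold in Fah off livers. Probe set 1415964_at read 812.7, 589.7 and 1168.9 in Fah off livers, 689.6 and 2274.5 in Fah p21 off livers, and 9780.5, 9794.9, 10327.3 and 3435.5 in normal livers. Normal 4 had 35.1% of the wildtype mean and still lay above every liver off NTBC on this array. The log2 difference was -3.20 ± 0.45 in Fah off (limma adjusted p = 0.000276) and -2.60 ± 0.51 in Fah p21 off livers (limma adjusted p = 0.00332). Probe set 1415965_at gave -3.06 ± 0.52 in Fah off and -2.46 ± 0.60 in Fah p21 off livers. Scd1 and Scd2 are close in sequence, and whether these probe sets tell them apart was not tested.

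Fads1, the delta-5 desaturase of polyunsaturated fatty acid synthesis, had the smallest adjusted p of the 10 genes in both comparisons on 430A. It read 586.1, 493.6 and 283.7 in Fah off livers, 688.6 and 597.4 in Fah p21 off livers, and 3445.7, 2723.2, 2882.3 and 2331.2 in normal livers. The 3 groups did not overlap, with Fah off lowest, Fah p21 off above it and normal well above both. On the log2 scale the difference was -2.67 ± 0.22 in Fah off (limma adjusted p = 7.23e-06) and -2.12 ± 0.26 in Fah p21 off livers (limma adjusted p = 0.000151), falls of 6.36-fold and 4.34-fold.

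Fads2, the delta-6 desaturase that acts before Fads1 in the same route, fell less. Probe set 1449325_at read 506.4, 919 and 595.7 in Fah off livers, 788 and 888.3 in Fah p21 off livers, and 1779.9, 1825, 1959.8 and 1623.3 in normal livers. The normal livers were close together and the livers off NTBC all lay below them. Its log2 difference was -1.44 ± 0.18 in Fah off (limma adjusted p = 0.000134) and -1.09 ± 0.21 in Fah p21 off livers (limma adjusted p = 0.00276), and probe set 1419031_at gave -1.39 ± 0.18 and -1.33 ± 0.20.

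Srebf1, which encodes the transcription factor SREBP-1 that induces most of these enzymes, fell 2.45-fold in Fah off livers. It read 899.7, 866.6 and 646 in Fah off livers, 902.7 and 1106.7 in Fah p21 off livers, and 1870.1, 2625.4, 1874.3 and 1605.9 in normal livers. Its groups did not overlap either, the lowest normal liver being normal 4. The log2 difference was -1.29 ± 0.18 in Fah off (limma adjusted p = 0.00029) and -0.97 ± 0.21 in Fah p21 off livers (limma adjusted p = 0.00548). The annotation used does not say which transcripts its probe set detects, so the 1a and 1c transcripts were not separated.

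**Figure D2:**
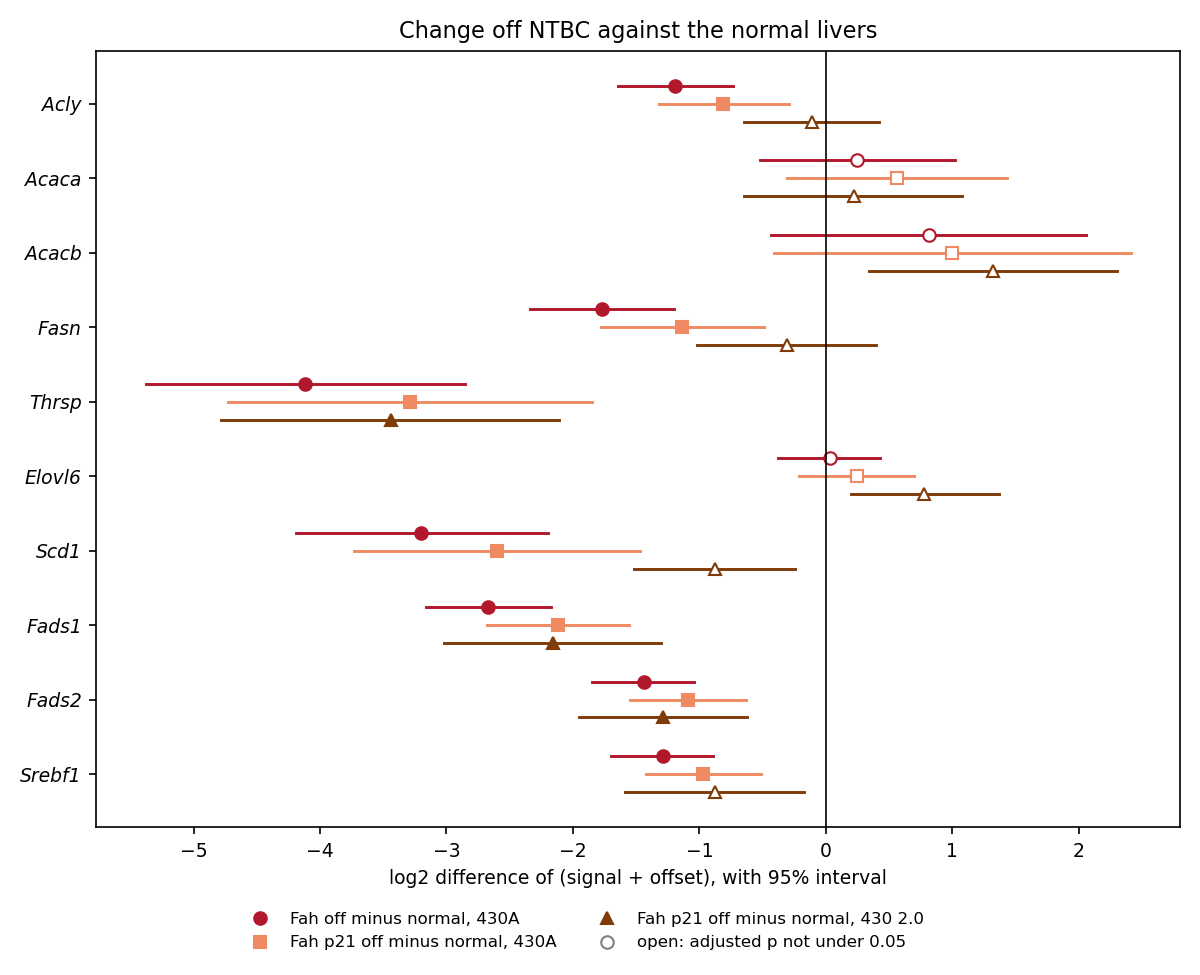
The log2 difference of (signal + offset) from the normal livers, with its unadjusted 95% interval, for Fah off on 430A, Fah p21 off on 430A and Fah p21 off on 430 2.0, and open symbols where the adjusted p was not under 0.05. The 7 genes that fell on 430A lie left of 0 in all 3 comparisons, but only Thrsp, Fads1 and Fads2 passed on 430 2.0.

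Between the genotypes off NTBC no difference passed the test. All 10 had a higher mean log2 signal in Fah p21 off than in Fah off livers on 430A, with a median difference of 0.37 beside 0.06 over all probe sets tested, but 0 had an unadjusted p under 0.05 and the lowest limma adjusted p was 0.646. For 3 of the 10, Fasn, Fads1 and Srebf1, both Fah p21 off livers lay above all 3 Fah off livers, as they did for 17.1% of all probe sets tested. The 95% intervals were wide, from -0.05 to 1.31 for Fasn, from -0.04 to 1.14 for Fads1 and from -0.69 to 2.34 for Thrsp. Within Fah off, liver 3 was the lowest for 7 of the 10 genes, and within Fah p21 off, liver 1 was the lowest for 7. Without Fah p21 off liver 2 the differences for Scd1 and Thrsp turned to -0.25 and -0.28.

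On the second array design Thrsp, Fads1 and Fads2 passed again, and the other 7 genes did not. Thrsp read 450.2 and 1359.6 in Fah p21 off livers 3 and 4 and 8541.9 in normal 4, a log2 difference of -3.44 ± 0.57 (limma adjusted p = 0.0106). Fads1 read 687.6 and 1258.8 in Fah p21 off livers and 4161.4 in normal 4 (-2.16 ± 0.36, limma adjusted p = 0.0117). Fads2 read 789.4 and 1115.5 in Fah p21 off livers and 2292.4 in normal 4 (-1.29 ± 0.28, limma adjusted p = 0.03). Of its other probe sets, 1419031_at also passed (-1.17 ± 0.29, limma adjusted p = 0.0468) and 1443838_x_at did not (-1.05 ± 0.34, limma adjusted p = 0.101). These 3 genes, and 5 of the 19 probe sets tested, passed, beside 3.8% lower among all probe sets. With a single normal liver the spread came from 1 residual degree of freedom, and 0 genes passed without the filter on dim probe sets or without the intensity trend.

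Among the genes that did not pass on 430 2.0, Fasn read 1372.7 and 916.2 in Fah p21 off livers and 1393.3 in normal 4, and Acly read 2658.2 and 2479.2 in Fah p21 off livers and 2780.2 in normal 4. Fasn was thus close to normal 4 in liver 3, at 98.5%, but stood at 65.8% in liver 4. Acly on this probe set, 1451666_at, stood at 95.6% and 89.2%. The log2 differences were -0.31 ± 0.30 for Fasn and -0.11 ± 0.22 for Acly. Of the other Acly probe sets tested, 1439459_x_at was lower in both livers, with 2273.2 and 2310.7 against 3376.2 in normal 4 (-0.56 ± 0.22). Probe set 1425326_at gave -0.18 ± 0.29. Scd1 read 5765.4 and 4121.2 in Fah p21 off livers and 8957.7 in normal 4 (-0.88 ± 0.27, limma adjusted p = 0.0884). Srebf1 read 2110.9 and 1378.7 in Fah p21 off livers and 3132.5 in normal 4 (-0.88 ± 0.30, limma adjusted p = 0.118).

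Elovl6 and Acacb lay on the other side of normal 4. Elovl6 on probe set 1417404_at read 940.5 and 869.4 in Fah p21 off livers and 523.4 in normal 4 (0.78 ± 0.25, limma adjusted p = 0.0943), and probe set 1417403_at gave 0.81 (limma adjusted p = 0.12). Acacb on probe set 1427052_at read 484.2 and 259.8 in Fah p21 off livers and 139.8 in normal 4 (1.32 ± 0.42, limma adjusted p = 0.0933). Neither gene passed. Another Acacb probe set, 1445754_at, was too dim to test and ran the other way, with 3.9 and 10.9 in Fah p21 off livers and 17.1 in normal 4. Acaca, on a probe set that 430A does not carry, read 777.4 and 443.4 in Fah p21 off livers and 504.3 in normal 4, with the normal liver between them.

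Because the normal group pools genotypes, each liver off NTBC was also set against the liver of its own genotype on NTBC. The Fah off livers stood at 38.3%, 34.7% and 17.9% of normal 3 for Fasn, at 7.87%, 5.71% and 11.3% for Scd1 and at 20.3%, 17.1% and 9.84% for Fads1. All 3 livers were thus well below their own control for these genes, and 7 genes again passed in the fit. The Fah p21 off livers on 430A stood at 54.2% and 63.1% of normal 4 for Fasn, at 20.1% and 66.2% for Scd1 and at 29.5% and 25.6% for Fads1.

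On 430 2.0 the Fah p21 off livers stood at 98.5% and 65.8% of normal 4 for Fasn, at 64.4% and 46% for Scd1 and at 16.5% and 30.2% for Fads1. On probe set 1423680_at Fads1 lay at or below 30.2% of its own control in all 4 Fah p21 off livers, while Fasn and Scd1 spread more widely. A dimmer Fads1 probe set that 430A does not carry, 1440444_at, stood at 92.6% and 52.5% of normal 4 on 430 2.0 (-0.49 ± 0.51, limma adjusted p = 0.606). Thrsp was at 5.63% and 27% on 430A and at 5.27% and 15.9% on 430 2.0. On probe set 1417404_at Elovl6 was at 177% and 136% on 430A and at 180% and 166% on 430 2.0, above normal 4 in all 4 livers, and at 98%, 108% and 106% of normal 3 in the Fah off livers. Another Elovl6 probe set on 430 2.0, 1442656_at, did not pass the filter on dim signal and ran the other way, with 28.6 and 15 in Fah p21 off livers and 102.3 in normal 4.

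**Figure D3:**
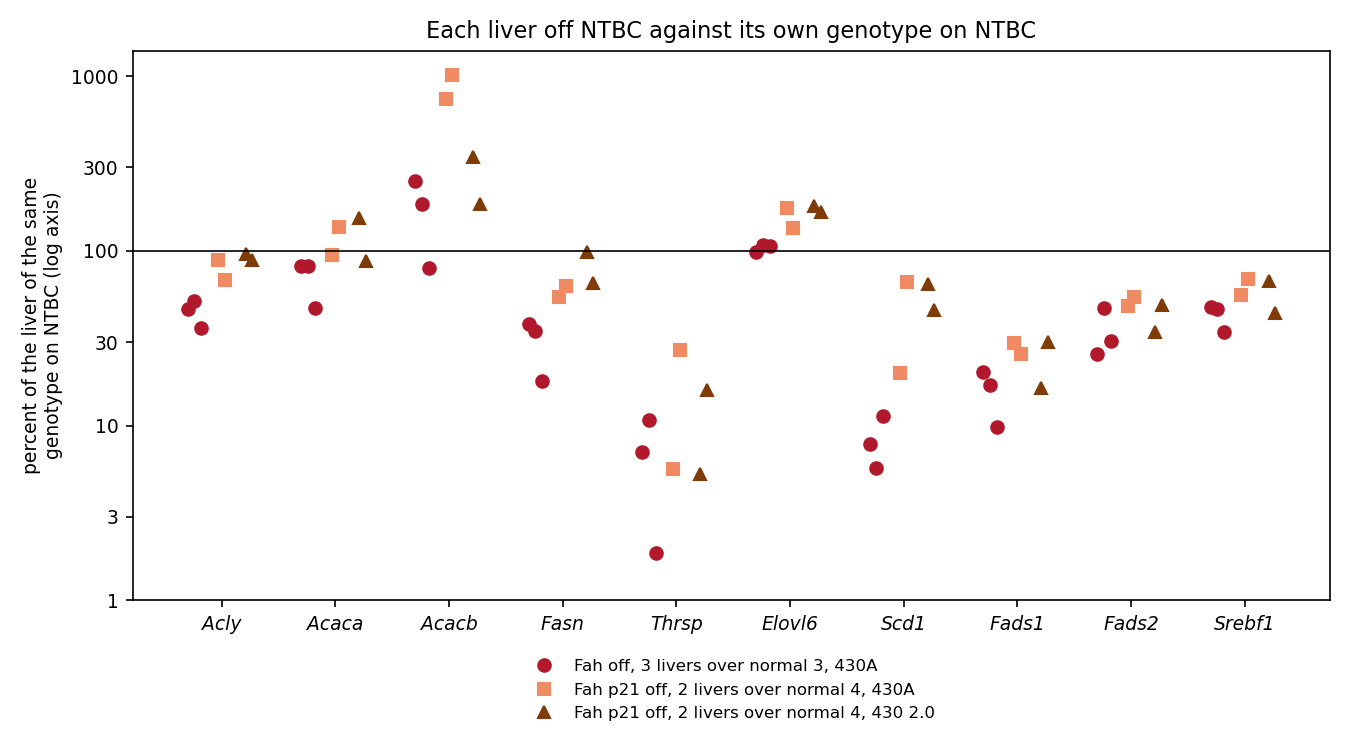
Signal of each gene's probe set of highest mean in each liver off NTBC, in percent (log axis) of the liver of the same genotype on NTBC and the same array design, for the 3 Fah off livers over normal 3 and the 4 Fah p21 off livers over normal 4. In the Fah p21 off livers Thrsp lies at or below 27% and Fads1 at or below 30.2%, and Elovl6 lies above 100% in all 4. Acacb reaches 1020% on 430A, over a dim signal of 25.6 in normal 4, and 346% on 430 2.0.

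With normal 4 as the sole control, 2 of the 10 genes passed in Fah p21 off livers on 430A in place of 7, Fads1 by -1.85 (limma adjusted p = 0.012) and Acacb as given above. The log2 differences of the other genes that fell against the pooled normal livers were -2.99 for Thrsp, -1.45 for Scd1, -0.95 for Fads2, -0.76 for Fasn, -0.68 for Srebf1 and -0.36 for Acly. Their limma adjusted p-values were 0.0837, 0.14, 0.0712, 0.249, 0.136 and 0.418 in that order. That control is 1 liver, and it was the lowest of the normal livers for 9 of the 10 genes, at a median of 68.6% of the wildtype mean, where normal 3 was at a median of 89.2%. The difference between the 2 genotypes' changes, each against its own control, was tested after these values were seen. It was 2.18 ± 0.82 for Scd1 and 2.11 ± 0.77 for Acacb on the log2 scale (limma adjusted p = 0.8 for each), and 0 of 15307 probe sets passed, with 868 at an unadjusted p under 0.05. The lowness of normal 4 cannot be told apart from its genotype, since it is the only double knockout on NTBC.

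Of 6 genes tested that bring glucose into the pathway, 4 fell and 1 rose in Fah off as in Fah p21 off livers. Gckr, which encodes the regulator of glucokinase, averaged 125.7 in Fah off and 1558 in normal livers (-3.74 ± 0.42), Slc2a2, the hepatocyte glucose transporter, 782.4 and 4213 (-2.41 ± 0.30), and Pklr, liver pyruvate kinase and a ChREBP target, 265.8 and 1012 (-1.90 ± 0.20). The Fah p21 off values were -2.67 ± 0.48, -2.47 ± 0.34 and -1.78 ± 0.23 in the same order. Tpi1, a shared glycolytic enzyme, was the gene that rose, by 0.58 ± 0.11 in Fah off livers, and Pfkl, liver phosphofructokinase, did not pass (-0.13 ± 0.18, limma adjusted p = 0.611).

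Of 9 suppliers of acetyl-CoA and NADPH tested, 5 rose and 2 fell in Fah off livers, and 4 rose and 1 fell in Fah p21 off livers. Pgd, an NADPH-producing enzyme of the pentose phosphate pathway, averaged 4692 in Fah off and 428.2 in normal livers (3.43 ± 0.18), and Tkt, of the same pathway, 4930 and 2314 (1.10 ± 0.13). Acss2, which makes acetyl-CoA from acetate and is a known SREBP target, averaged 619.2 in Fah off and 1670 in normal livers (-1.42 ± 0.26), the direction of Acly. The differences of Fah p21 off livers were 3.16 ± 0.20 for Pgd, 0.99 ± 0.15 for Tkt and -1.19 ± 0.29 for Acss2.

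Among other desaturases and elongases 5 of 10 fell and 2 rose in each genotype. Elovl3, an elongase of very long saturated and monounsaturated chains, averaged 176.2 in Fah off and 3412 in normal livers (-4.03 ± 0.51), and Tecr, the last reductase of the elongation cycle, 1436 and 5577 (-1.95 ± 0.13). In the other direction, Elovl7 averaged 788.3 in Fah off and 80.65 in normal livers (3.12 ± 0.25). Scd2, the desaturase of brain and of fetal liver, averaged 914.9 in Fah p21 off and 84.1 in normal livers (3.26 ± 0.38), opposite to Scd1. Elovl3 changed by -4.03 ± 0.58 and Elovl7 by 2.90 ± 0.29 in Fah p21 off livers, and on 430 2.0 Fads3 rose by 3.72 ± 0.41. Fads3 read 15 in normal 4, under the 40th percentile of 34.2 on that array. It passed the filter through the livers off NTBC alone.

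Of the regulators of the pathway 6 of 16 fell and 1 rose in each genotype. Rxra, the partner of LXR and PPAR receptors, averaged 634.7 in Fah off and 1778 in normal livers (-1.51 ± 0.20). Nr1h3, which encodes LXR alpha, averaged 307.7 in Fah off and 475.6 in normal livers (-0.61 ± 0.16), and in Fah p21 off livers Mlycd, which breaks down malonyl-CoA, changed by -1.03 ± 0.21. Pparg, a nuclear receptor of fat storage, averaged 220.3 in Fah off and 50.38 in normal livers (1.96 ± 0.20) and changed by 1.66 ± 0.23 in Fah p21 off livers. Its normal mean lay under the 40th percentile of every array, 73.8 or more, so high signals off NTBC could bring it past the filter.

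Genes of fat storage and fatty acid uptake included the largest rises of the lists read. Of 17 triglyceride and droplet genes 6 rose and 1 fell in Fah off, and 5 rose and 1 fell in Fah p21 off livers. Cidec, a droplet protein, averaged 1048 in Fah off and 45.85 in normal livers (4.29 ± 0.26), Mogat1, an acyltransferase, 549.4 and 140.1 (1.91 ± 0.20), and Pnpla2, the main triglyceride lipase, 1647 and 740.2 (1.15 ± 0.15). The normal mean of Cidec lay under the 40th percentile of every array, which was 73.8 or more. High signals off NTBC could thus bring it past the filter, so the counts of rises are partly fixed by the filter. Cidec changed by 3.42 ± 0.30, Mogat1 by 1.89 ± 0.23 and Mttp, which loads lipid onto lipoproteins, by 0.81 ± 0.14 in Fah p21 off livers.

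Of 13 genes of fatty acid activation and binding 3 rose and 4 fell in Fah off, and 3 rose and 5 fell in Fah p21 off livers. The rises are near the share over all genes tested, 19.7% in Fah off and 17.8% in Fah p21 off livers. Cd36, a fatty acid uptake receptor, averaged 2730 in Fah off and 263 in normal livers (3.41 ± 0.27), and Acot1, a thioesterase, 1888 and 176.2 (3.50 ± 0.35). Acsm1, a medium-chain acyl-CoA synthetase, averaged 1075 in Fah off and 3711 in normal livers (-1.79 ± 0.13). These genes changed by 3.58 ± 0.30, 3.15 ± 0.40 and -1.96 ± 0.14 in Fah p21 off livers, in the same order. Each change given for the 6 lists had a limma adjusted p under 0.05, and between Fah p21 off and Fah off livers 0 genes of the 6 lists passed.

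On 430 2.0 the lists' leading genes ran in the same directions in Fah p21 off livers against normal 4. Gckr, Slc2a2 and Pklr changed by -2.92 ± 0.57, -2.76 ± 0.52 and -2.35 ± 0.29, and Elovl3 by -5.61 ± 0.43. Pgd, Elovl7, Cidec, Mogat1, Acot1 and Cd36 changed by 2.61 ± 0.23, 4.44 ± 0.27, 6.62 ± 0.38, 3.01 ± 0.27, 3.61 ± 0.30 and 3.35 ± 0.27, and all had a limma adjusted p under 0.05. Agpat2, an acyltransferase of triglyceride synthesis, fell by 0.97 ± 0.24 on the log2 scale.

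**Figure D4:**
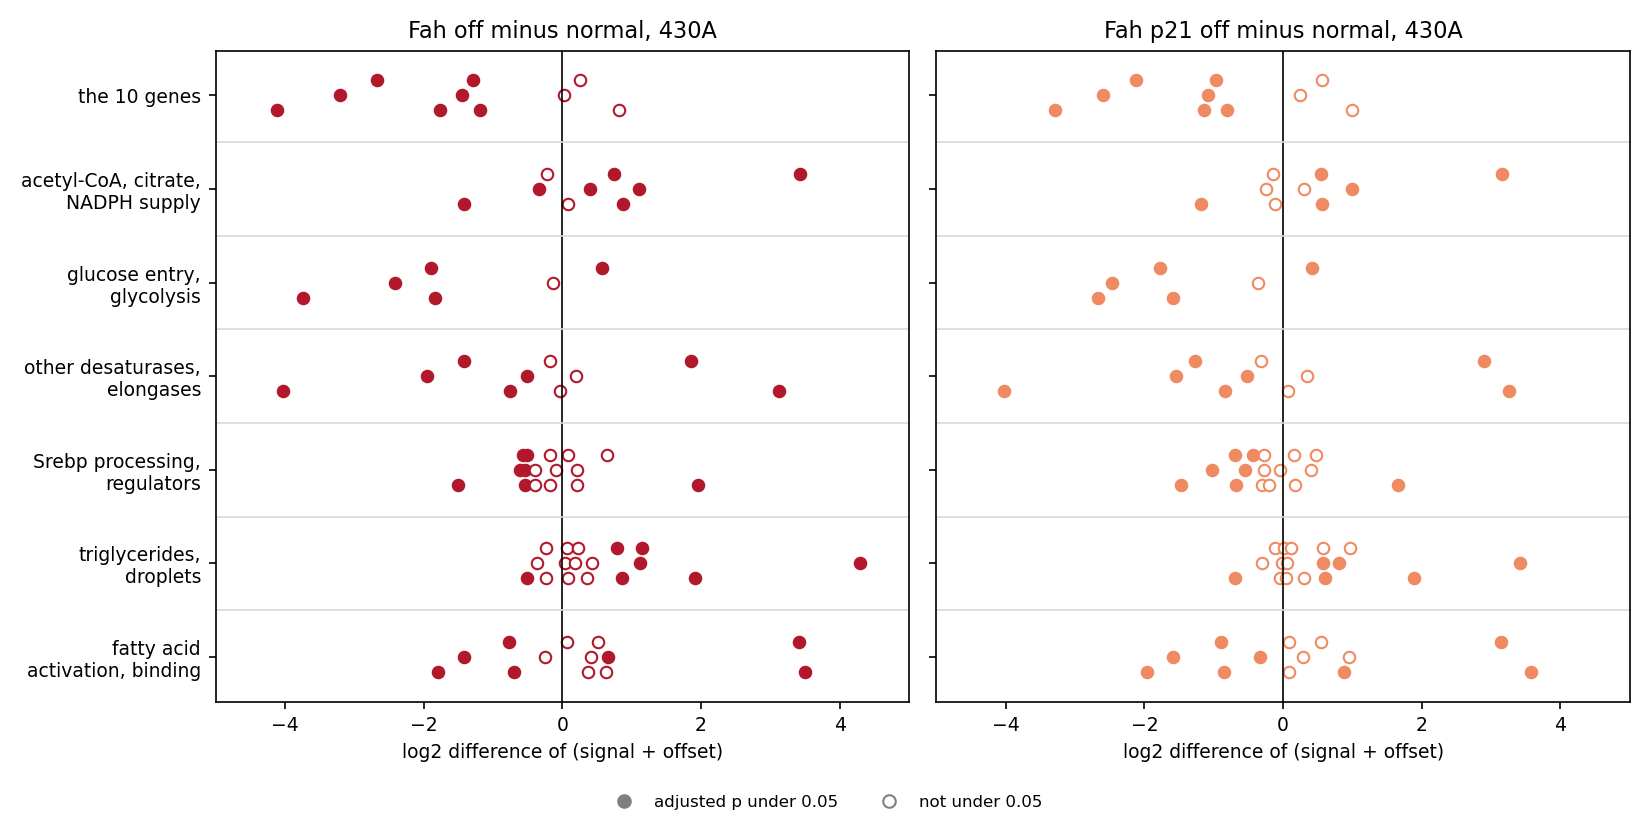
The log2 difference of (signal + offset) from the normal livers on 430A for the 10 genes and for the tested members of the 6 neighbouring lists, 1 point for each gene, with Fah off left and Fah p21 off right, and open points where the adjusted p was not under 0.05. The 10 genes and the glucose list hold 7 of 10 and 4 of 6 filled points below 0 in both panels, while the lists of NADPH supply and of triglycerides hold more filled points above 0 than below.

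Markers of some of the cell types in liver also changed. The summed signal of 6 hepatocyte markers was 61779 to 69162 in Fah off, 58875 to 61983 in Fah p21 off and 92940 to 97143 in normal livers. Of the 6, 6 fell in Fah off and 5 in Fah p21 off livers, with medians of -0.55 and -0.61. On 430 2.0 the sums were 113163 and 113699 in Fah p21 off livers 3 and 4 and 133758 in normal 4. The log2 differences there were smaller, with a median of -0.26, from -0.57 for Ahsg to -0.02 for Ttr. The largest falls of hepatocyte markers in Fah p21 off livers on 430A were those of Fgb (-0.85 ± 0.10) and Ahsg (-0.77 ± 0.10), beside -0.81 for Acly. Cholangiocyte markers summed to 1309 to 1393 in Fah off, 1240 to 1984 in Fah p21 off and 165 to 330 in normal livers. Of 7 on the array 5 were tested, and 5 of 5 were higher in both. Means of these 5 in normal livers ran from 12.98 for Epcam to 72.65 for Cldn4. These lay under the 40th percentile of every array, which was 73.8 or more. High signals off NTBC could thus bring them past the filter, so that count is partly fixed by it. Macrophage markers summed to 7827 to 9517, 10136 to 10655 and 4673 to 8679 in these groups, and stellate cell and fibroblast markers to 4704 to 6736, 7322 to 8023 and 3002 to 3958. Macrophage markers rose for 3 of 8 in Fah off and 4 of 8 in Fah p21 off livers, and stellate cell and fibroblast markers for 3 of 8 and 5 of 8. Of 6 endothelial markers 1 rose in each genotype, and 0 of 3 lymphocyte and 0 of 2 pancreas markers passed. Among the stellate and endothelial markers that rose, Lrat and Lyve1 also had normal means under the 40th percentile of every array, 52.35 and 70.47. What part these shifts have in the falls was not tested.

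Adipocytes also express these 10 genes, so their markers were read. Adipoq, the fat-specific adiponectin gene, was between 14.4 and 38 and Lep, leptin, between 5.6 and 17 in all 9 livers, and neither passed the filter. Lep lay at or near the offset of 9.9. Adipoq was dim but above it, highest in Fah off liver 1 and lowest in Fah off liver 3. Fabp4, a fatty acid binding protein also made by macrophages, averaged 2907 in Fah off and 114.7 in normal livers (4.59 ± 0.21), and Cidea 153.9 and 12.02 (2.98 ± 0.34). Car3, abundant in both fat and liver, read 7314.3, 6551.6 and 1181.2 in Fah off livers 1 to 3 against 12645 to 14543.8 in normal livers, and liver 3 was again the lowest.

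The targeted genes were read as a check of the labels. Fah read 100.8 to 113.5 in Fah off livers, 105.3 and 114.2 in Fah p21 off livers, 181.9 and 233 in the knockouts on NTBC and 6868.1 and 7120.1 in wildtype livers. Cdkn1a on probe set 1421679_a_at read 989.5 to 1861.5 in Fah off livers, 8.2 and 9.5 in Fah p21 off livers and 14.7 to 51.4 in normal livers. A second Cdkn1a probe set, 1424638_at, read 1827.6 and 2059.6 in Fah p21 off livers, and whether it lies outside the deleted part was not tested.

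Genes with the profile most like the mean of the 10 over the 9 arrays of 430A were Nnt, a mitochondrial NADPH-producing transhydrogenase (Pearson r = 0.982), Rsrp1 (0.982), Plekhf1 (0.976), Dpp4 (0.975) and C1s1 (0.974). The 9 points share the split between livers on and off NTBC, and 425 of 9185 genes had an r over 0.9, so that these values describe the arrays alone. Within the 10, the correlation with the mean of the others ran from 0.865 to 0.979 for the 7 genes that fell and from -0.292 to -0.049 for Acaca, Acacb and Elovl6. The 7 were set apart by their fall on these same arrays, so this gap was largely fixed by that choice.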

How the data were processed

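Liver RNA was measured on 9 arrays of the 430A and 3 of the 430 2.0 design. The authors deposited 1 linear intensity for each probe set and array. The submitters' processing notes name MAS5 and GCOS 1.4.0.036. On every array the mean of the central signals, from the 2nd to the 98th percentile, was close to 350, so the authors had scaled arrays alike. Per the labels' protocols RNA came from 10 mg of liver kept in RNAlater.

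The 64 control probe sets were left out. Signals were taken to log2(signal + offset), the offset being the 10th percentile of a table (9.9 and 3.8), which understates changes of dim probe sets. Tests covered the 15307 and 26925 probe sets that reached the 40th percentile of signals on 2 or more arrays, in 1 fit per design with limma 3.58.1 in R 4.3.3 (lmFit, eBayes with trend), with 6 and 1 residual degrees of freedom, and the fit was tested on simulated data. Adjusted p-values are limma's Benjamini-Hochberg values over all probe sets tested, with a threshold of 0.05, and errors of log2 differences are SE. Designs were scaled separately and not compared. A gene was read on its probe set of highest mean.

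Symbols came from GEO's platform annotation, matched by Entrez identifier to the gene table of GRCm38.p6 for 20351 and 34741 probe sets, and windows before gene starts from RefSeq. Besides the 10 genes, the text draws per list and comparison on the 3 largest changes among genes that passed (if under 2 passed, on the 2 lowest p-values), and on the 5 genes most like the 10 in profile. Tpi1, Pfkl, Adipoq and Lep were taken outside this rule, with their values seen. Scd2 and Car3 were also added with their values seen, though the rule picks each of them in at least 1 comparison. The genes and lists were chosen with earlier results of these data known. Equal replicate numbers did not pair samples: over 7 pairs the correlation of deviations was -0.28 to 0.07. No pair of arrays shared more than 0.407% identical signals. The number of arrays limits the precision. Python 3.11.15 and matplotlib 3.10.9 drew the figures.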

Additional observations from a re-analysis of the deposited data

Results flagged for a closer look

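Scd1 on probe set 1415964_at was 3435.5 in normal 4, the double knockout on NTBC, against 9780.5 to 10327.3 in normal livers 1 to 3. The gap of this liver to the nearest of the others was 0.921 of the group's range, above Dixon's critical value at the 95% level for 4 samples. Chance alone gives such a gap in about 1 of 20 groups. On 430 2.0 the liver of that number read 8957.7 for the same probe set, and the scales of both designs are separate. The second Scd1 probe set, 1415965_at, read 671.1 in normal 4 against 1746.9 to 2976.4 in the other normal livers. Without normal 4, the count of the 10 genes that passed stayed at 7 in both comparisons with normal livers.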

How the results depend on the processing

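The count of the 10 genes that passed in Fah off against normal livers was 7 under each of the filters, offsets, normalizations and limma settings tried, under a 2-fold minimum and with the liver of the same genotype as control, and 8 against wildtype livers. The gene added against wildtype livers was Acaca, which was higher there (0.83), while the other 7 were lower. Leaving out 1 array at a time gave 7 to 7 for Fah off against normal, 2 to 7 for Fah p21 off against normal and 0 to 0 between them. The 2 came without Fah p21 off liver 1, when Fasn, Acly, Scd1, Thrsp and Srebf1 had limma adjusted p-values of 0.11, 0.0536, 0.0595, 0.0604 and 0.0711, and without Fah p21 off liver 2 the count was 5. In Fah p21 off against normal the count was 2 with normal 4 as the sole control, 5 under a 2-fold minimum and 8 against wildtype livers. The gene added against wildtype livers was again Acaca, which was higher (1.14). On 430 2.0 it was 3, and 0 without the filter or without the trend. Leaving out an array was not possible there, since no residual degrees of freedom would remain. With the replicate block the counts were 7, 7 and 0. No paired analysis was possible on 430 2.0 because its groups share fewer than 2 replicate numbers. The count for the difference between genotypes, a test added after seeing the data, was 0 in each of 5 settings.

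Signs turned in genes that had not passed, and leaving out 1 array at a time spanned -0.1 to 0.17 for Elovl6 in Fah off against normal, and between Fah p21 off and Fah off -0.27 to 0.51 for Acacb, -0.25 to 1.45 for Scd1 and -0.28 to 1.93 for Thrsp. In Fah off against normal, Elovl6 was -0.05 with quantile normalization, -0.04 with a common median, -0.1 without normal 4, -0.1 with the replicate block and -0.17 against wildtype livers, and Acaca was -0.52 against normal 3. Between Fah p21 off and Fah off, Acacb was -0.27 without Fah off liver 3, -0.04 without Fah p21 off liver 2 and -0.13 with the replicate block, and Scd1 and Thrsp were -0.25 and -0.28 without Fah p21 off liver 2. Elovl6 on 430 2.0 was -0.17 as the mean of its probe sets. The causes were not tested.

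Over all probe sets the number passing in Fah off against normal was 5437, and 3281 against normal 3, 2265 under a 2-fold minimum and 3145 as means per gene. In Fah p21 off against normal it was 4353, and 2353 against normal 4, 2135, 2656, and 2533 and 2595 without Fah p21 off livers 1 and 2. Between them it was 6 and ranged from 1 to 80, and on 430 2.0 it was 3101, and 1002 without the filter, 1225 without the trend and 1741 as means per gene. A common median moved the split of higher and lower calls in Fah p21 off against normal to 1651 and 2514, from 2716 and 1637, and the median of all probe sets to -0.12.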
